A study of Rattus norvegicus with 8 samples.

Results

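The insulin and EGF receptor signalling genes described here are 9: the receptor genes Insr, Egfr and Erbb3, the docking protein genes Irs1 and Irs2, the kinase genes Pik3r1 and Akt2, and the transcription factor genes Foxo1 and Foxo3. They were chosen by name and, like the gene lists used below, with earlier results of these data known. Every probe set whose only gene symbol in the array annotation was one of these names was taken, which gave 19 of the 31042 probe sets tested, and 9 of 14217 named genes. The tissue was liver of male Sprague-Dawley rats weighing 180 to 200 g, removed 8 h after injection. The 4 groups were dexamethasone with AICAR, dexamethasone alone, AICAR alone, and vehicle. Dexamethasone, a synthetic glucocorticoid, was given into muscle at 1.5 mg/kg. AICAR, a nucleoside that cells turn into an AMP-like activator of the kinase AMPK, was given into the peritoneum at 0.7 g/kg. Rats that lacked an agent had saline by the same route. Each group held 2 arrays, and the rats' age, feeding state and insulin level are not given in the sources used here. Whether paired arrays of a group came from different rats is not stated, and the p-values therefore reflect array-to-array spread that could be technical.

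Insulin binds its receptor on hepatocytes, and the activated receptor phosphorylates the docking proteins IRS1 and IRS2. These recruit phosphoinositide 3-kinase (PI3K), whose product brings the kinase AKT to the membrane, and AKT then keeps FOXO transcription factors out of the nucleus. FOXO factors drive genes of glucose output and fasting, while insulin drives genes of lipid synthesis. The EGF receptor is abundant on hepatocytes, feeds the same PI3K branch and the RAS and MAPK branch, and is known for its part in liver regeneration. ERBB3 has little kinase activity of its own and signals through its partners, with many docking sites for PI3K.

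The promoters of 6 of the 9 genes were in the RefSeq table, on the GRCr8 build. The genes with the largest differences among these, Egfr and Foxo1, are shown with Insr, whose transcript rose with that of Foxo1 after dexamethasone. Each run is the 250 bases before the annotated start, 5′ to 3′ on the gene's strand, and capitals mark matches, on either strand, to the FOXO site GTAAACA, the glucocorticoid receptor motif TGTTCT or the GC box GGGCGG.
Egfr, chr14:95378376-95378625 (plus strand): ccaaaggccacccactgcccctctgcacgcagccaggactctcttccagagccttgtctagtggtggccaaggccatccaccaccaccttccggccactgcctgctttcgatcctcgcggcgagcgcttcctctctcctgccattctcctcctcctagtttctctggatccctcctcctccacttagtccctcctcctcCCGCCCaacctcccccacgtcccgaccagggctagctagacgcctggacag
Foxo1, chr2:138462724-138462973 (plus strand): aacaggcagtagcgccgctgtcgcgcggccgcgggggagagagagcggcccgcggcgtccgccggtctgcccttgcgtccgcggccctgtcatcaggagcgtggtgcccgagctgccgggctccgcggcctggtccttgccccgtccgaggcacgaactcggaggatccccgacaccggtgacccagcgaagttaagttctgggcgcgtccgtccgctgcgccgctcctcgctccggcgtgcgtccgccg
Insr, chr12:6128804-6129053 (minus strand): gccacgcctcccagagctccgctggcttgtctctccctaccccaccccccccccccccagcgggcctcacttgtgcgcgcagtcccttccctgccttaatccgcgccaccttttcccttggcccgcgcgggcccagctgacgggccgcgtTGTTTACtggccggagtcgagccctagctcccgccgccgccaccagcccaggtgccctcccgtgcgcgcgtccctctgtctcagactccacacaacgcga
The Egfr window held 1 GC box, 51 to 46 bases before the start, and 63.6% of its bases were G or C. In the Insr window 1 FOXO site lay 100 to 94 bases before the start. The Foxo1 window held no match to any of the motifs, which says only that these letters are not in it. Of the other windows, that of Akt2 had 1 TGTTCT match, that of Pik3r1 had 7 GC boxes and that of Irs1 had 2. Among all 33469 windows of this length 3.21% held the FOXO site, 17.5% the TGTTCT motif and 30.5% the GC box. These matches are descriptions of sequence, with no binding measured.

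Values are the authors' RMA levels on the log2 scale, so a difference of 1 is a 2-fold change; levels of different probe sets are not compared. A difference was called at an adjusted p under 0.05 in limma, with Benjamini-Hochberg adjustment over all 31042 probe sets, and its standard error follows the ± sign (n = 2 arrays per group). Where a gene had several probe sets, the brightest represented it. The lower quartile of the dimmest array was 3.84, and probe sets below it carry little signal. As a check of the tissue, 9 hepatocyte markers were bright in every group: the log2 of their summed level was 16.9 in all 8 arrays, and the mean of albumin (Alb) was 14.74, 14.74, 14.69 and 14.70 in the combination, dexamethasone, AICAR and vehicle groups. Array controls differed between groups. The 3′ minus 5′ difference of the actin control was 1.80 after the combination, 2.04 after dexamethasone, 1.82 after AICAR and 2.23 in vehicle, so RNA quality and treatment cannot be told apart.

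Across the comparisons, the members moved in both directions and mostly by less than 2-fold. Dexamethasone alone raised 3 of the 9 genes and lowered 1, where 22.7% of all named genes were called (8.37% higher, 14.3% lower); the members' median was 0.14 and that of all genes -0.03. AICAR alone raised 2 and lowered 2, against 15.2% of all genes called (6.22% higher, 8.96% lower), with a median of 0.01 for the members and 0.00 for all genes. The combination raised 3 and lowered 2 relative to vehicle, where 34.4% of all genes were called (15.9% higher, 18.4% lower), with medians of -0.04 and -0.01. Set against dexamethasone alone, the combination lowered 3 members and raised none, where 25.4% of all genes were called (14% higher, 11.3% lower), with medians of -0.14 and 0.02. Set against AICAR alone, it raised 3 and lowered 4, where 38.2% of all genes were called (18.7% higher, 19.4% lower), with medians of 0.15 and -0.02. Comparisons that share a group are not independent of each other. At an unadjusted p under 0.05 in limma, 1 member was higher after the combination than after dexamethasone alone. The share of all genes at an unadjusted p is not given here or below. Such counts therefore have nothing to be read against. Several counts fell when 1 array was left out, and the number of all genes called in those fits is not given here. Such a fit leaves 1 group with a single array and less to estimate the spread from. A lost call therefore need not mean a changed difference: that of Egfr after AICAR stayed between -0.35 and -0.33. Other differences moved more where the call was lost. After AICAR, that of Irs1 ran from -0.51 to -0.30 and that of Erbb3 from 0.22 to 0.35. After dexamethasone 2 members were called without either vehicle array. After AICAR the count was 0 without AICAR replicate 1, 1 without AICAR replicate 2 or either vehicle array, and 2 without either combination array. After the combination relative to vehicle it was 3 without vehicle replicate 2 or combination replicate 1 and 2 without combination replicate 2, and relative to AICAR alone it was 4 without either combination array.

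**Figure D1:**
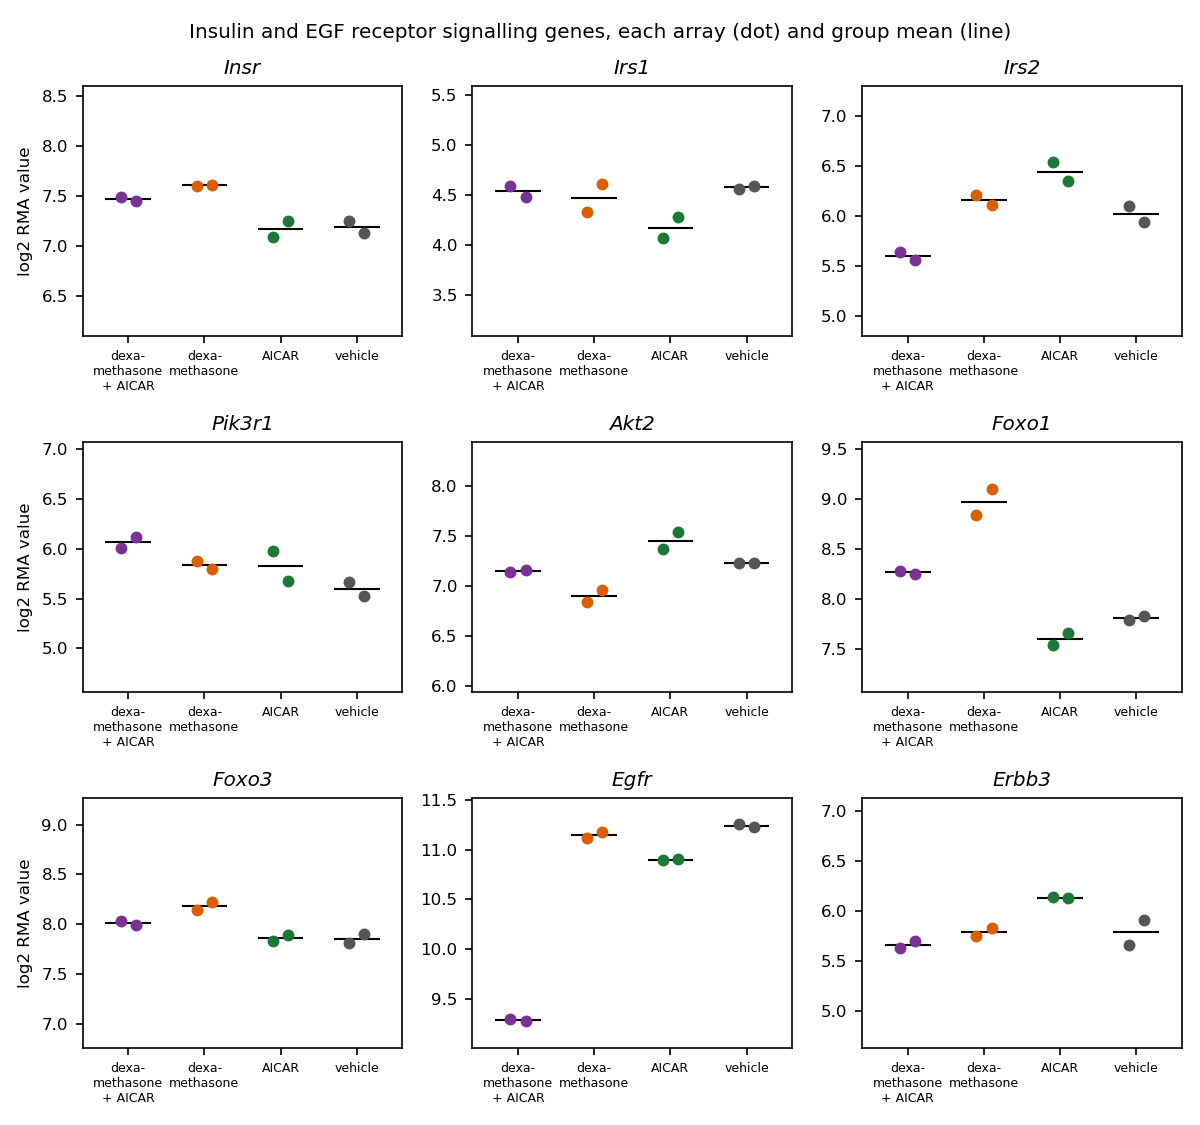
Log2 RMA value (vertical axis) of the brightest probe set of each gene in the 8 arrays (dots), with the mean of the 2 arrays of each group (lines). Every panel spans an equal height around its own centre. Egfr stands near 9.3 in both combination arrays against 10.9 to 11.3 elsewhere, and Foxo1 is highest after dexamethasone alone.

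Egfr, which encodes the receptor for EGF and related ligands, had the largest change of the 9 genes. Its brightest probe set, 1370830_at, read 9.31 and 9.28 after the combination, 11.12 and 11.18 after dexamethasone, 10.90 and 10.90 after AICAR, and 11.25 and 11.22 in vehicle. The 2 combination arrays lay far below the other 6, which lay between 10.90 and 11.25. Relative to vehicle, Egfr fell by 1.94 ± 0.07 after the combination (3.85-fold lower, adjusted p = 3.09e-07), and 106 of 14217 genes, Egfr included, fell that far or further. Relative to dexamethasone alone it fell by 1.85 ± 0.07 (adjusted p = 8.29e-07), and relative to AICAR alone by 1.61 ± 0.07 (adjusted p = 1.03e-06).

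Neither agent alone came near this size. AICAR alone lowered Egfr by 0.34 ± 0.07 (adjusted p = 0.0159), a call lost when any 1 AICAR or vehicle array was left out (adjusted p from 0.0614 to 0.0875). Dexamethasone alone gave -0.09 ± 0.07 (95% interval -0.25 to 0.07, adjusted p = 0.433). The interaction, which is the dexamethasone difference in the presence of AICAR minus that in its absence, was -1.51 ± 0.10 for Egfr (adjusted p = 3.42e-05). In the order of levels, the vehicle arrays lay just above the dexamethasone arrays without a call, dexamethasone stood above AICAR by 0.25 (adjusted p = 0.0291), and the combination was lowest.

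The other Egfr probe sets were also lower after the combination than in vehicle. Probe set 1381145_at read 9.18 and 9.24 after the combination, 10.98 and 11.04 after dexamethasone, 10.92 and 10.93 after AICAR, and 11.42 and 11.41 in vehicle. Its fall relative to vehicle was 2.21 ± 0.07 after the combination, 0.40 ± 0.07 after dexamethasone (adjusted p = 0.00429) and 0.49 ± 0.07 after AICAR (adjusted p = 0.00343). The dimmer probe set 1385413_at read 5.99 and 6.27 after the combination, 6.11 and 6.31 after dexamethasone, 6.46 and 6.48 after AICAR, and 6.60 and 6.68 in vehicle. Its fall after the combination was 0.51 ± 0.11, a call that ended without vehicle replicate 2 or combination replicate 1. Dexamethasone alone lowered this probe set by 0.43 ± 0.11 (adjusted p = 0.0275), which ended without either vehicle array or dexamethasone replicate 1. The combination was 0.34 ± 0.11 below AICAR alone (adjusted p = 0.045) but was not called against dexamethasone alone (-0.08 ± 0.11, adjusted p = 0.681). The call against AICAR alone ended without either vehicle array, either AICAR array or combination replicate 1 (differences from -0.35 to -0.20). That call also ended with only the compared arrays fitted (adjusted p = 0.0594). The interaction of 1385413_at was 0.09 ± 0.16 (adjusted p = 0.766), unlike the -1.31 ± 0.10 of 1381145_at (adjusted p = 8.42e-05). With the probe sets averaged, dexamethasone alone lowered Egfr by 0.31 (adjusted p = 0.0101), so the call for that comparison depends on the probe set. The averaged interaction was -0.91, still called.

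**Figure D2:**
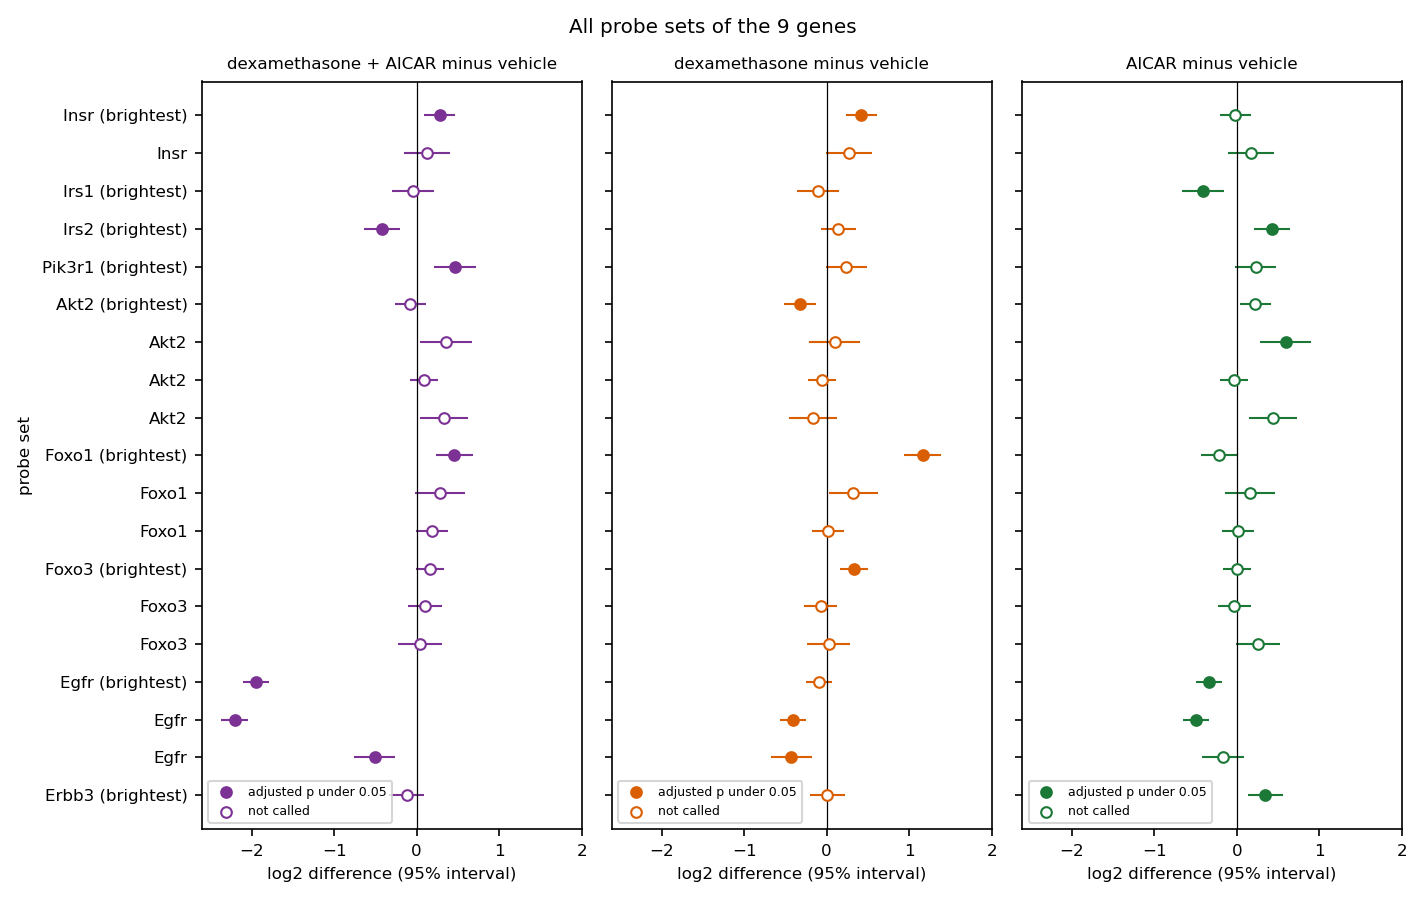
Log2 difference from vehicle (horizontal axis) with its 95% interval for each of the 19 probe sets (rows), for the combination, dexamethasone and AICAR; filled dots passed an adjusted p of 0.05. All 3 Egfr probe sets were lower after the combination, while the dimmer probe sets of Akt2, Foxo1 and Foxo3 differed from the brightest.

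Macrophage markers fell in the same arrays as Egfr. All 10 measured markers of Kupffer cells and macrophages were lower after the combination than in vehicle, with a median of -4.22. The log2 of their summed level was 7.71 to 7.78 after the combination, 11.14 to 11.29 after dexamethasone, 12.44 to 12.46 after AICAR and 12.30 to 12.33 in vehicle, and 4 of the 10 had means below 3.84 after the combination. Of 8 sinusoidal endothelial markers 4 fell (50%) and of 9 lymphocyte markers 6 fell (66.7%). Of 10 stellate cell markers 4 rose and 3 fell (70%), and of 4 bile duct markers 1 rose (25%). In this comparison 34.4% of all genes were called (15.9% higher, 18.4% lower). In whole liver, fewer cells of a type and less RNA per cell cannot be told apart. Of the 9 hepatocyte markers 2 rose and 2 fell (44.4%, beside 34.4% of all genes), with a median of 0.04. The part of these markers in the changes of Egfr, the other members or the gene lists was not tested.

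Erbb3, the partner receptor that binds neuregulins, had a different order. The levels of 1369088_at were 5.63 and 5.70 after the combination, 5.75 and 5.83 after dexamethasone, 6.14 and 6.13 after AICAR, and 5.66 and 5.91 in vehicle. The AICAR arrays were above all others. Erbb3 fell after the combination relative to AICAR alone (-0.47 ± 0.09, adjusted p = 0.00533), a call that all alternatives kept. The rise after AICAR alone (0.35 ± 0.09, adjusted p = 0.0451) ended without any 1 array other than vehicle replicate 2 (adjusted p from 0.0591 to 0.202), when only the compared arrays were fitted (adjusted p = 0.0976) and under cyclic loess (adjusted p = 0.052). Its interaction (-0.47 ± 0.13, adjusted p = 0.0437) ended without any 1 array other than vehicle replicate 2 (adjusted p from 0.0698 to 0.137). The combination and dexamethasone gave -0.12 ± 0.09 and 0.01 ± 0.09 relative to vehicle, and neither passed.

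Of 11 measured genes of the remaining ErbB receptors and the ligands of the family, 2 were called after the combination relative to vehicle (18.2%, beside 34.4% of all genes) and 1 after dexamethasone (9.09%, beside 22.7%). Egf itself, the ligand gene, fell by 1.48 ± 0.10 after the combination relative to vehicle (adjusted p = 1.7e-05), and relative to dexamethasone alone by 1.27 ± 0.10. Nrg4 encodes a neuregulin that binds ERBB4. Relative to vehicle it rose by 1.21 ± 0.12 after the combination and by 0.78 ± 0.12 after dexamethasone (adjusted p = 1.18e-04 and 0.0024). Its only probe set was dim, with means of 3.42 in vehicle and after AICAR, which lie below 3.84. The means after dexamethasone and after the combination were 4.19 and 4.63. No other gene of this list was called relative to vehicle. The means of Areg, Hbegf and Erbb4 lay below 3.84 in every group, so their lack of a call says little. After AICAR alone 0 genes of the list were called in limma, beside 15.2% of all genes. At an unadjusted p under 0.05 there were 2 higher and 2 lower, with no share of all genes at that threshold to set beside them. Nrg4 and Btc, which encodes the ligand betacellulin, were higher after the combination than after dexamethasone alone, by 0.44 ± 0.12 and 0.30 ± 0.09 (adjusted p = 0.0331 and 0.0424). Nrg4 lost that call without either dexamethasone array or combination replicate 2 (adjusted p from 0.0764 to 0.201), and Btc without any 1 array of the combination, dexamethasone or AICAR groups (adjusted p from 0.0556 to 0.243), with a trended prior (adjusted p = 0.0752) and with only the compared arrays (adjusted p = 0.0659). The list's median was 0.09 after the combination, 0.02 after dexamethasone and 0.12 after AICAR.

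By its brightest probe set, the insulin receptor gene Insr was higher wherever dexamethasone was given. Probe set 1392043_at read 7.49 and 7.44 after the combination, 7.60 and 7.61 after dexamethasone, 7.09 and 7.25 after AICAR, and 7.25 and 7.13 in vehicle. The 4 arrays with dexamethasone did not overlap the 4 without it. Dexamethasone alone raised Insr by 0.42 ± 0.08 (1.34-fold, adjusted p = 0.00828), and among the alternatives this call ended without vehicle replicate 2 (adjusted p = 0.0599). The combination raised it by 0.28 ± 0.08 relative to vehicle (adjusted p = 0.0355, and 0.0512 with the replicate number as a block) and by 0.30 ± 0.08 relative to AICAR (adjusted p = 0.0245). Each of these calls ended without either combination array, the first also without vehicle replicate 2 and the other without AICAR replicate 1 (adjusted p from 0.0768 to 0.185). AICAR alone gave -0.02 ± 0.08 (95% interval -0.21 to 0.17). Relative to vehicle, the dimmer probe set of Insr, 1369051_at, gave 0.13 ± 0.12 after the combination, 0.27 ± 0.12 after dexamethasone and 0.17 ± 0.12 after AICAR. For the combination relative to AICAR alone it gave -0.05 ± 0.12 (adjusted p = 0.822), and none of these was called. Averaging the 2 probe sets ended both calls of the combination (adjusted p = 0.0882 and 0.257).

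The docking protein genes differed from each other. Irs2, the form that fasting and FOXO factors are known to induce in liver, by its probe set 1371091_at read 5.64 and 5.56 after the combination, 6.21 and 6.11 after dexamethasone, 6.54 and 6.35 after AICAR, and 6.10 and 5.94 in vehicle. The combination arrays were below all others and the AICAR arrays above all others. Irs2 fell by 0.85 ± 0.09 after the combination relative to AICAR alone (adjusted p = 2.2e-04) and by 0.56 ± 0.09 relative to dexamethasone alone (adjusted p = 0.00342). Relative to vehicle it fell by 0.42 ± 0.09 (adjusted p = 0.0105), which ended without vehicle replicate 1 or combination replicate 2 (adjusted p = 0.0682 and 0.0709). AICAR alone raised it by 0.42 ± 0.09 (adjusted p = 0.0228), which ended without vehicle replicate 2 or AICAR replicate 1 (adjusted p = 0.117 and 0.14) and when only the compared arrays were fitted (adjusted p = 0.0624). Dexamethasone alone gave 0.14 ± 0.09 (95% interval -0.07 to 0.36). The interaction for Irs2 was -0.99 ± 0.13 (adjusted p = 0.00183), and the single differences summed to 0.57 where the combination measured -0.42.

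Irs1, the docking protein shared with muscle and fat, was dim (1369771_at), at 4.59 and 4.48 after the combination, 4.32 and 4.61 after dexamethasone, 4.07 and 4.27 after AICAR, and 4.56 and 4.59 in vehicle. Only the AICAR arrays stood apart, below the other 6. It fell by 0.41 ± 0.11 after AICAR relative to vehicle (adjusted p = 0.0484), a call that ended without any 1 array other than the dexamethasone arrays (adjusted p from 0.0631 to 0.243), when only the compared arrays were fitted (adjusted p = 0.0584) and with centring (adjusted p = 0.0565). The combination was 0.37 ± 0.11 above AICAR alone (adjusted p = 0.0369), which ended without either vehicle array, either combination array or AICAR replicate 1 (adjusted p from 0.0517 to 0.208). Its interaction was 0.47 ± 0.16 and was not called (adjusted p = 0.0816, and 0.0364 without dexamethasone replicate 2).

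Pik3r1, which encodes the main regulatory subunit of PI3K, was highest after the combination. Probe set 1370114_a_at read 6.01 and 6.11 there, 5.88 and 5.79 after dexamethasone, 5.98 and 5.67 after AICAR, and 5.67 and 5.52 in vehicle. Its rise was 0.47 ± 0.11 after the combination relative to vehicle (adjusted p = 0.0132), which ended without vehicle replicate 2 or combination replicate 2 (adjusted p = 0.0862 and 0.0844). Dexamethasone and AICAR alone gave 0.24 ± 0.11 and 0.23 ± 0.11 (95% intervals -0.01 to 0.49 and -0.02 to 0.48), and neither passed. No neighbouring pair in its order of levels was called (adjusted p = 0.2, 0.964 and 0.218), although the arrays overlapped in 1 pair alone, dexamethasone and AICAR. The combination was 0.24 ± 0.11 above AICAR alone (adjusted p = 0.144, and 0.0382 without AICAR replicate 1).

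Akt2, the AKT kinase gene best known for insulin action in liver, by 1388765_at read 7.14 and 7.16 after the combination, 6.84 and 6.96 after dexamethasone, 7.37 and 7.54 after AICAR, and 7.22 and 7.23 in vehicle. The AICAR arrays were highest and the dexamethasone arrays lowest. Dexamethasone alone lowered the brightest probe set by 0.32 ± 0.08 (adjusted p = 0.0278). That call ended without either vehicle array or dexamethasone replicate 1 (adjusted p from 0.0953 to 0.128) and when only the compared arrays were fitted (adjusted p = 0.0575). The combination was 0.30 ± 0.08 below AICAR alone (adjusted p = 0.0242), which ended without AICAR replicate 2 or either combination array (adjusted p from 0.089 to 0.15). The 3 dimmer probe sets of Akt2 (1368832_at, 1378425_at and 1387353_at) gave 0.10, -0.06 and -0.17 after dexamethasone, none called, and averaging all 4 ended both calls (adjusted p = 0.223 and 0.126). After AICAR alone the brightest probe set gave 0.23 ± 0.08 (adjusted p = 0.116), while 1368832_at rose by 0.60 ± 0.14 (adjusted p = 0.0242), a call lost without either vehicle array or AICAR replicate 1 (adjusted p from 0.0727 to 0.143). With all 4 averaged the rise after AICAR was 0.31 (adjusted p = 0.012). Relative to vehicle the combination gave -0.07 ± 0.08 by the brightest probe set (adjusted p = 0.579). It was 0.25 ± 0.08 above dexamethasone alone, which was not called (adjusted p = 0.0709). That difference passed with dim probe sets removed (adjusted p = 0.0484), with a trended prior (adjusted p = 0.0269) and in the average (adjusted p = 0.00862). In the same comparison 1387353_at was called higher, by 0.50 ± 0.13 (adjusted p = 0.0236), which ended without dexamethasone replicate 1 or combination replicate 2. Probe sets 1368832_at and 1378425_at gave 0.26 and 0.15 there and were not called.

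The FOXO factor genes were highest after dexamethasone alone. Foxo1, the main insulin-controlled FOXO factor of hepatocytes, by 1376779_at read 8.28 and 8.25 after the combination, 8.84 and 9.10 after dexamethasone, 7.54 and 7.66 after AICAR, and 7.79 and 7.82 in vehicle. No 2 groups overlapped. Dexamethasone alone raised Foxo1 by 1.17 ± 0.10 (2.24-fold, adjusted p = 8.18e-05), and 108 of 14217 genes, Foxo1 included, rose as much or more. After the combination it was 0.46 ± 0.10 above vehicle (adjusted p = 0.00824, and 0.0514 without combination replicate 1), 0.67 ± 0.10 above AICAR alone (adjusted p = 0.00101) and 0.71 ± 0.10 below dexamethasone alone (adjusted p = 0.00126). AICAR alone gave -0.21 ± 0.10 (95% interval -0.43 to 0.01, adjusted p = 0.207). The interaction was -0.50 ± 0.14 (adjusted p = 0.0433), a call lost when any 1 array was left out except the first of the dexamethasone group (adjusted p from 0.0671 to 0.124).

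The other probe sets of Foxo1 showed less. Probe set 1377502_at gave 0.29 ± 0.13 after the combination, 0.32 ± 0.13 after dexamethasone and 0.17 ± 0.13 after AICAR, none called, and 1375688_at lay below 3.84 in every group. Averaged over all 3, Foxo1 rose by 0.50 after dexamethasone (adjusted p = 0.000563), against 1.17 by its brightest probe set. The averaged combination was 0.32 above AICAR alone and 0.19 below dexamethasone alone (adjusted p = 0.00322 and 0.0496), and the averaged interaction was not called (adjusted p = 0.18).

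Foxo3, a related FOXO factor, by 1376593_at read 8.04 and 8.00 after the combination, 8.15 and 8.22 after dexamethasone, 7.83 and 7.89 after AICAR, and 7.81 and 7.90 in vehicle. The dexamethasone arrays were above all others. It rose by 0.33 ± 0.07 after dexamethasone (adjusted p = 0.0166), a call that ended without vehicle replicate 1 or dexamethasone replicate 2 (adjusted p = 0.0913 and 0.0788), when only the compared arrays were fitted (adjusted p = 0.0561) and in the average of its probe sets (0.09, adjusted p = 0.275). The combination and AICAR gave 0.16 ± 0.07 and 0.01 ± 0.07 relative to vehicle (95% intervals -0.01 to 0.33 and -0.16 to 0.18). Of the 2 dimmer probe sets of Foxo3, 1376210_at read 3.12 to 3.56 over the 8 arrays and 1376229_at lay close to 3.84, and none of their differences was called.

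The interaction was called for 4 of the 9 genes, Egfr, Irs2, Foxo1 and Erbb3, all negative, where it was called for 20% of all genes (11.9% positive, 8.05% negative). At an unadjusted p under 0.05, 1 member had a positive interaction, with no share of all genes at that threshold to set beside it. The count was 2 without vehicle replicate 1, either AICAR array or either combination array. The members' median interaction was -0.17 and that of all genes 0.01. For Egfr the single differences summed to -0.43 where the combination measured -1.94. For Foxo1 they summed to 0.96 and the combination measured 0.46, and for Erbb3 they summed to 0.35 and it measured -0.12. Pik3r1 and Akt2 had interactions of 0.00 ± 0.16 and 0.02 ± 0.12, with 95% intervals of -0.36 to 0.35 and -0.25 to 0.29, so interactions anywhere in those ranges fit these arrays. Insr and Foxo3 gave -0.12 ± 0.12 and -0.17 ± 0.11, not called.

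**Figure D3:**
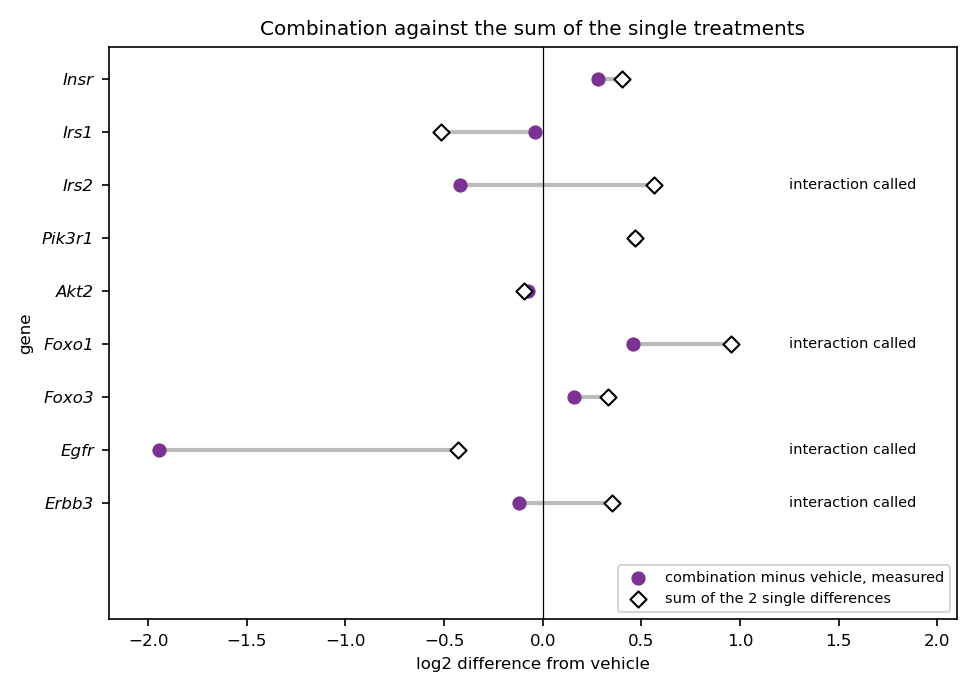
Log2 difference from vehicle (horizontal axis) for the 9 genes (rows): the measured combination (dots) and the sum of the differences of the single treatments (diamonds), joined by a grey line whose length is the interaction. The line is longest for Egfr, followed by Irs2, and the symbols coincide for Pik3r1.

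The lists of further pathway genes were chosen with earlier results of these data known. Their shares beside those of all genes are therefore descriptions only. The lists held 112 symbols, of which 97 were measured. After the combination 14 of these rose and 29 fell relative to vehicle, 44.3% in all beside 34.4% of all genes. Dexamethasone alone raised 15 and lowered 10, 25.8% beside 22.7%, and AICAR alone raised 7 and lowered 12, 19.6% beside 15.2%. FOXO and insulin target genes moved most often: of 20 measured (Foxo4, a FOXO factor itself, among them), 9 rose and 3 fell after dexamethasone alone (60%, beside 22.7% of all genes), with a median of 0.22 beside -0.03 for all genes. Igfbp1, which encodes an IGF-binding protein that insulin represses, rose by 1.45 ± 0.07, the cell cycle inhibitor gene Cdkn1a by 1.32 ± 0.08 and the fatty acid synthase gene Fasn by 1.03 ± 0.07. Pdk4, which encodes a fasting-induced kinase that restrains pyruvate oxidation, fell by 1.15 ± 0.08. These rises and falls held both genes that FOXO factors are known to drive and genes, such as Fasn, that insulin is known to raise.

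After the combination 5 of these 20 genes rose and 8 fell relative to vehicle (65%, beside 34.4% of all genes). Pdk4 fell by 2.20 ± 0.08, the cyclin gene Ccng2 by 1.50 ± 0.09 and Txnip, whose product restrains glucose uptake, by 1.23 ± 0.08, while the DNA damage gene Gadd45a rose by 0.99 ± 0.08. Relative to dexamethasone alone, 11 fell and 1 rose (60%, beside 25.4% of all genes), with a median of -0.59 beside 0.02 for all genes. Fasn fell by 1.41 ± 0.07 in that comparison and the gluconeogenic gene Pck1 by 1.13 ± 0.07. The interaction was called for 10 of the 20 (50%, beside 20% of all genes), 9 of them negative, led by Igfbp1 (-1.94 ± 0.11, adjusted p = 1.47e-05) and Fasn (-1.78 ± 0.10, adjusted p = 1.51e-05). AICAR alone raised 3 and lowered 5 (40%, beside 15.2% of all genes), with Igfbp1 at 1.03 ± 0.07 and the repressor gene Bcl6 at 0.69 ± 0.07.

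**Figure D4:**
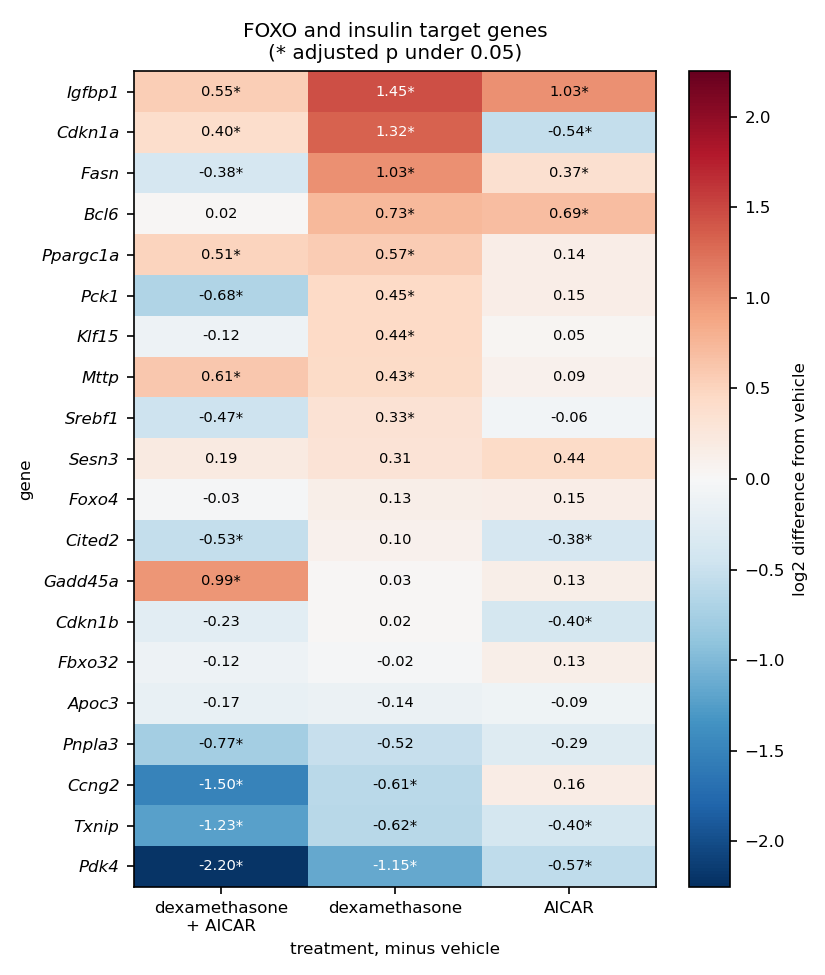
Log2 difference from vehicle of the 20 FOXO and insulin target genes (rows) after the combination, dexamethasone and AICAR (columns); red is higher, blue lower and an asterisk marks an adjusted p under 0.05. Igfbp1, Cdkn1a and Fasn lead the rises after dexamethasone, and Pdk4 is lowest in every column.

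Genes that restrain the receptors changed in both directions. Of 19 measured, 3 rose and 3 fell after dexamethasone, 31.6% beside 22.7% of all genes. Trib3, which encodes a pseudokinase reported to inhibit AKT, rose by 1.20 ± 0.11, and Errfi1, whose product binds and inhibits the EGF receptor, by 0.89 ± 0.07. Dusp6, which encodes a phosphatase of the MAP kinase ERK, fell by 1.03 ± 0.08. After the combination 2 rose and 6 fell relative to vehicle (42.1%, beside 34.4% of all genes), with Dusp6 at -1.17 ± 0.08 and Cbl, which encodes a ubiquitin ligase of the EGF receptor, at -0.69 ± 0.08. Relative to dexamethasone alone, Errfi1 fell by 0.86 ± 0.07 and Trib3 by 0.84 ± 0.11, with 4 of the 19 lower (21.1% called, beside 25.4% of all genes). None was higher in limma, nor at an unadjusted p under 0.05. AICAR alone raised 1 and lowered 2 (15.8%, beside 15.2% of all genes), with Dusp6 at -0.75 ± 0.08, although 1 of its 3 probe sets was called higher.

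Of 24 measured adaptor, PI3K, kinase and phosphatase genes, 3 rose and 8 fell after the combination relative to vehicle (45.8%, beside 34.4% of all genes), with a median of -0.15. Sgk1, which encodes an AKT-related kinase, fell by 2.04 ± 0.07, and Gab1, an adaptor gene of the EGF receptor, by 0.87 ± 0.10. Dexamethasone alone raised 1 and lowered 2, 12.5% beside 22.7% of all genes, with Sgk1 at -1.49 ± 0.07. AICAR alone raised 1 and lowered 3, 16.7% beside 15.2%, with Sgk1 at -1.07 ± 0.07. In the mTOR branch, 2 of 16 rose and 4 fell after the combination, a share of 37.5% close to the 34.4% of all genes. Sesn2, which encodes a stress protein that restrains mTORC1, was -0.85 ± 0.08 there but 0.52 ± 0.08 after dexamethasone alone, with an interaction of -1.21 ± 0.11. Only 7 of 14 RAS and MAPK genes were measured, and 1 rose and 2 fell after the combination (42.9%, beside 34.4% of all genes), led by the kinase gene Rps6ka3 (-0.54 ± 0.09).

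The genes whose differences from vehicle lay nearest to those of Foxo1 and Egfr, the members whose group means spanned at least 1, were found by the distance over the 3 log2 differences. For Foxo1 these were Acot13 (distance 0.14), Trib3 (0.16) and Bbox1 (0.23), against a median of 1.33 over 14216 genes. Trib3 had differences of 0.36 after the combination, 1.20 after dexamethasone and -0.09 after AICAR. For Egfr they were C11h21orf91 (distance 0.34), Cth (0.47), which encodes a cysteine-producing enzyme, and Hao2 (0.47), which encodes a hydroxy acid oxidase, against a median of 1.99. C11h21orf91 had differences of -1.67, -0.21 and -0.51 in the same order. The genes were picked as the nearest, so distances below the median were fixed by that choice and are no measure of likeness. The distances rest on group means of 2 arrays.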

How the data were processed

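RNA of rat liver was measured on 8 Affymetrix arrays in 4 groups of 2; groups and replicate numbers came from the titles. The deposited table holds log2 values; per the submitters' processing notes the authors used affy and RMA. Versions and the base of the logarithm are not given in the sources used here, and base 2 was read from the range of 1.96 to 14.7. RMA sets the arrays to a common distribution and compresses changes of dim probe sets. The number of arrays limits the precision. Array medians lay between 5.22 and 5.27. Of 31099 probe sets, 57 array controls were left out. Of the rest, 20826 had 1 gene symbol, 436 several and 9780 none in the platform annotation; symbols were updated by gene ID through a RefSeq table of GRCr8.

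With limma 3.58.1 in R 4.3.3, 1 coefficient per group was fitted over all 8 arrays, with 4 residual and 4.58 prior degrees of freedom. With 2 arrays against 2, the smallest two-sided p of an exact permutation test is 0.333, so none was run. The code was tested on simulated data. The members and lists were chosen with earlier results of these data known. All members are named; of each list, the called genes of largest change, at most 4 per comparison. Alternatives were a filter removing probe sets below the 25th percentile of mean level, a trended robust prior, only the compared arrays, a replicate block, cyclic loess, centring, gene means and removal of each array.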

Additional observations from a re-analysis of the deposited data

Results flagged for a closer look

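The effect of dexamethasone differed between rats with and without AICAR, by the interaction test in limma, for these genes; values are the log2 difference with AICAR minus that without. Among the members they were -1.51 for Egfr, -0.99 for Irs2, -0.50 for Foxo1 and -0.47 for Erbb3. The calls of Foxo1 and Erbb3 lay near the threshold (adjusted p = 0.0433 and 0.0437). As described above, each was lost when most of the arrays were left out singly. That of Foxo1 also fell to -0.18 with its probe sets averaged (adjusted p = 0.18). Among ligands the value was -0.95 for Egf. Among kinases it was 0.58 for Prkci and 0.52 for Sgk1; that of Prkci fell to 0.21 with its probe sets averaged (adjusted p = 0.289), and that of Sgk1 ended without combination replicate 2 (adjusted p = 0.0502). Among inhibitors of the receptors it was -0.76 for Trib3 and 0.60 for Dusp6. In the mTOR branch it was -0.90 for Deptor and -1.21 for Sesn2. Among FOXO and insulin target genes it was -1.94 for Igfbp1 and -1.78 for Fasn. The interaction was called for 20% of all named genes.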

How the results depend on the processing

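Of 54 results (9 genes by their brightest probe sets in 6 comparisons), 33 kept their side of the threshold under all of up to 15 alternatives, among them the fall of Egfr after the combination and the rise of Foxo1 after dexamethasone, both relative to vehicle. No called result changed sign; 50 of 3229 alternative values did, none of them called before or after (lowest adjusted p 0.0525). With only the compared arrays fitted, 2 members were called after dexamethasone and 1 after AICAR, in place of 4 and 4. The number of all genes called in that fit, or with an array left out, is not given here. A lower count need not be particular to the members. Leaving out each array in turn gave 2 to 4 called members after dexamethasone, 0 to 3 after AICAR (4 with all arrays), and 2 to 5 after the combination, all relative to vehicle. It gave 3 for the combination relative to dexamethasone in every case, 4 to 7 relative to AICAR alone, and 2 to 3 for the interaction (4 with all arrays). An array left out leaves its group with 1, which is assumed to vary like the others. With the replicate block, 4, 4, 4, 3, 7 and 4 members were called for dexamethasone, AICAR and the combination relative to vehicle, the combination relative to dexamethasone and to AICAR, and the interaction. In the same order, the block fit called 5448, 3539, 8132, 6041, 9330 and 4484 of all probe sets. The main fit called 5726, 4011, 8350, 6233, 9563 and 4858. The correlation of same-numbered arrays' deviations was 0.16 between vehicle and dexamethasone, and -0.04 to 0.01 between the other pairs of groups. These low values do not settle whether the replicate numbers mark a pairing. No scaling moved the median of all probe sets by over 0.1. Small changes near the threshold are what 2 arrays per group cannot settle.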
